A study of Mus musculus with 8 samples.

Results

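The nuclei described here were 264 of the 5264 mouse midbrain nuclei with at least 5000 unique molecular identifiers (UMIs), out of 5740 nuclei in all. They were the top 5% by a score over Pdgfd, Klhl14, Adra1a, Otx2os1, Rasef and Plpp4. The score was the mean of the 6 genes' log1p of UMIs per 10000, each scaled to a mean of 0 and an SD of 1 across nuclei. They are called members below, and 87 came from the wild-type (wt) library and 177 from the mutant library. They were compared with the 1189 wt and 2651 mutant other nuclei that held at least 5 UMIs per 10000 of Th, Slc6a3, Slc18a2 and Ddc together, called other dopamine nuclei. The remaining 310 wt and 850 mutant nuclei held fewer of these dopamine tags. Because the 6 genes and all other genes were read in the same nuclei, every comparison of members with other nuclei is a description without a test.

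The study asked what dopamine neurons transcribe with and without a working Polycomb repressive complex 2 (PRC2), by sequencing the RNA of single sorted nuclei. Both groups were of the strain DatCreEed, aged 8 months, and each was a pool of 2 females and 1 male sequenced over 4 lanes, labelled wt in one group and PRC2 mutant in the other. The strain's name joins Dat, the dopamine transporter gene, also called Slc6a3, whose promoter drives Cre recombinase in lines so named, with Eed, a core subunit of PRC2. The labels do not give the alleles the wt mice carried. With 1 library per genotype no test between genotypes could be made, and the genotypes cannot be told apart from the batches. All intervals are exact 95% intervals and cover counting error only. Beside a share of 0 the limit given is the share that a floor of 3 nuclei would make, not the bound of such an interval.

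Midbrain dopamine neurons lie in the substantia nigra, which serves movement, and in the ventral tegmental area, which serves reward and motivation. The transcription factor Sox6 marks mainly nigral neurons and Otx2 mainly tegmental ones, and some tegmental dopamine neurons also carry the vesicular glutamate transporter Slc17a6. PRC2 trimethylates lysine 27 of histone H3 and holds genes of other lineages silent, Hox genes and other developmental regulators among them.

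Members held 1738628 UMIs in the wt and 2776605 in the mutant library, with medians of 18056 and 13744 UMIs per nucleus. Other dopamine nuclei were deeper, with medians of 25438 and 20006. A level is given as CPM, the UMIs of a gene summed over the nuclei of a group in a library per 1000000 UMIs of the group; it compares a gene between groups and not genes with each other. One UMI was worth 0.575 CPM in wt and 0.360 CPM in mutant members. The libraries shared 4 cell barcodes, and 1 member carried one of them. No doublets were removed; 1 wt and 4 mutant members held over 2 times their library's median UMIs, and 12 of 87 wt and 25 of 177 mutant members held at least 2 UMIs per 10000 of glial and vascular markers, shares of 13.8% and 14.1% against 15.8% and 14.1% of other dopamine nuclei.

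The 6 genes that chose the members have unlike products. Pdgfd encodes a platelet-derived growth factor, Adra1a an alpha-1 adrenergic receptor, and Plpp4 a phospholipid phosphatase. Klhl14 encodes a kelch protein and Rasef a small GTPase with calcium-binding motifs. Otx2os1 is a long noncoding RNA that starts within Otx2 on the other strand. As the rule fixes, all 6 were higher in members, and the values describe how far. Pdgfd (chromosome 9, 6168584 to 6378850, plus strand, build mm10) stood at 197 CPM in wt and 201 CPM in mutant members, against 14.1 and 14.3 CPM in other dopamine nuclei. Klhl14 (chromosome 18, 21550377 to 21654718, minus strand) stood at 118 and 128 CPM against 6.27 and 11.5 CPM. Rasef (chromosome 4, 73714579 to 73790994, minus strand) stood at 75.3 and 63.4 CPM against 2.81 and 3.66 CPM, the widest ratio of the 6. Adra1a (chromosome 14, 66635251 to 66771168, plus strand) stood at 181 and 197 CPM against 20.5 and 20.2 CPM. Otx2os1 (chromosome 14, 48668708 to 48870683, plus strand) stood at 385 and 429 CPM against 53.1 and 49.8 CPM. Plpp4 (chromosome 7, 129257031 to 129391412, plus strand) stood at 342 and 247 CPM against 68.1 and 39.3 CPM, the narrowest ratio.

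**Figure D1:**
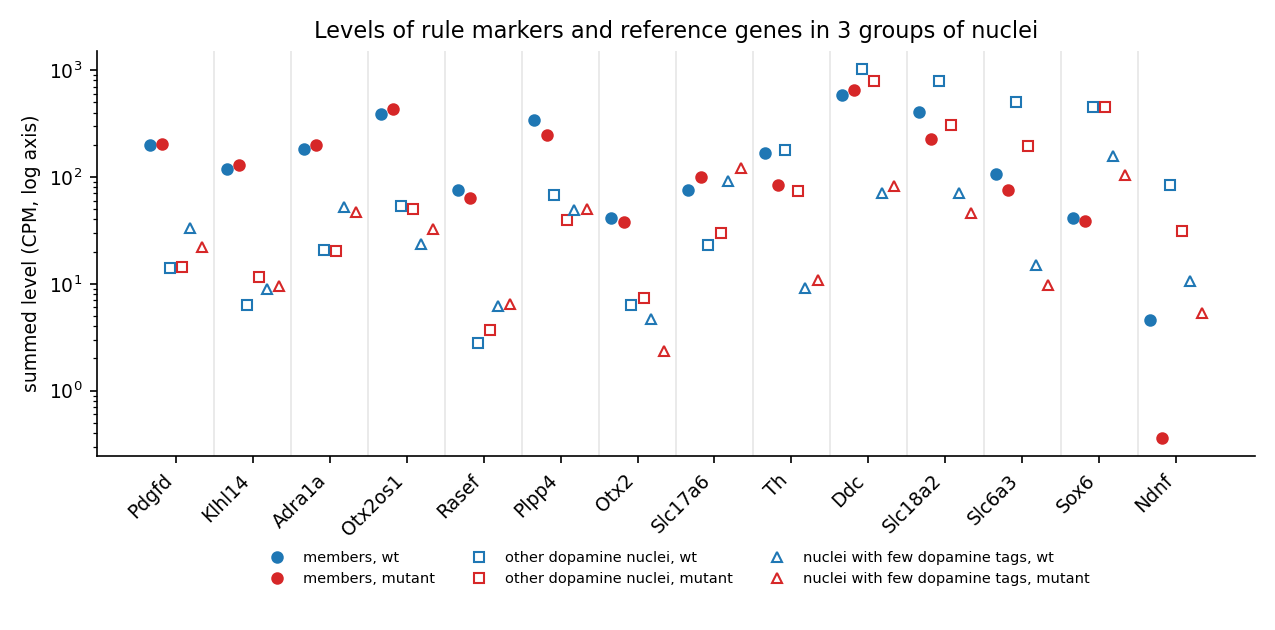
Summed level in CPM (log axis) of the 6 genes of the rule and 8 other genes, in members (filled circles), other dopamine nuclei (squares) and nuclei with few dopamine tags (triangles) of the wt (blue) and mutant (red) library. Otx2 and Slc17a6 were higher in members than in other dopamine nuclei of both libraries, Sox6 and Ndnf were lower, and Th was close in both groups.

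Members did not form a separate cloud. The lowest member scored 1.26451 and the highest other nucleus 1.26435; 29 members lay within 0.1 above that line and 41 other nuclei within 0.1 below it. The 50 lowest members averaged 3.69 Otx2os1 UMIs per 10000 and the 50 highest other nuclei 2.35, while Plpp4 averaged 2.57 and 2.49. The class is therefore a range of a score. Each nucleus was thinned to 5000 UMIs to compare shares at one depth. At least 3 of the 6 genes then had a UMI in 65 of 87 wt members (74.7%) and 128 of 177 mutant members (72.3%), and in 2.86% and 3.09% of other dopamine nuclei. Otx2os1 was seen in 72.4% of wt members (61.8 to 81.5%) and 72.9% of mutant members (65.7 to 79.3%), against 16.3% and 15.1% of other dopamine nuclei. Without thinning its shares in members were 83.9% and 83.1%. As a background for free RNA, nuclei rich in oligodendrocyte genes were thinned with the members to 2000 UMIs. None of the 6 genes had a UMI in 21 wt or 18 mutant such nuclei, which allows up to 14.3% and 16.7%, and Otx2os1 was then in 43.7% and 49.2% of members. These nuclei had median depths of 3496 and 5762 UMIs before thinning.

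When 1 of the 6 genes was left out of the score, the left-out gene was still higher in nuclei chosen by the other 5. Klhl14 stood at 83.0 CPM in wt and 81.4 CPM in mutant nuclei so chosen, 11.2-fold (9.16 to 13.7) and 6.26-fold (5.37 to 7.28) above other dopamine nuclei. The least was Plpp4, at 4.39-fold (3.96 to 4.84) and 4.76-fold (4.34 to 5.21). Between 210 and 230 of the 264 members were chosen again, depending on the gene left out. The 6 genes had been picked from these data as a group, so this describes the choice and supports nothing further.

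**Figure D2:**
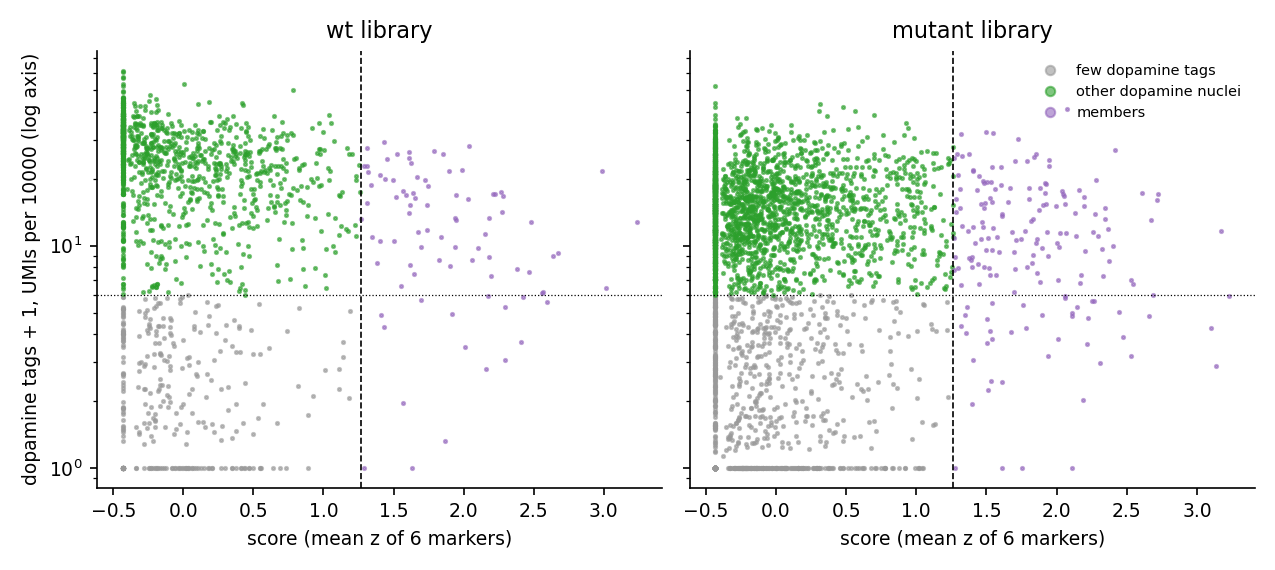
Score of each nucleus (horizontal) against its dopamine tags plus 1 in UMIs per 10000 (log axis), for wt (left) and mutant (right) nuclei. The dashed line is the score of the lowest member and the dotted line marks 5 dopamine tags per 10000; members spread over both sides of the dotted line and adjoin the other dopamine nuclei.

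Members held fewer dopamine tags than the other dopamine nuclei, in part because only the latter were cut at 5 tags. The 4 tags together had a median of 11.7 UMIs per 10000 in wt and 9.80 in mutant members, against 25.2 and 13.7 in other dopamine nuclei. Of the members 71 wt (81.6%) and 134 mutant nuclei (75.7%) reached 5. Th, tyrosine hydroxylase, was at a close level in both: 167 CPM in wt and 84.6 CPM in mutant members against 178 and 73.8 CPM in other dopamine nuclei, ratios of 0.939 (0.832 to 1.06) and 1.15 (1.00 to 1.31). Slc6a3, the dopamine transporter, was lower in members, at 107 and 75.6 CPM against 505 and 194 CPM. That is 4.72-fold lower (4.08 to 5.48) in wt and 2.57-fold lower (2.24 to 2.96) in mutant nuclei. Slc18a2, which loads dopamine into vesicles, stood at 403 and 229 CPM against 792 and 309 CPM, and Ddc, which makes dopamine from L-DOPA, at 588 and 644 CPM against 1018 and 794 CPM. Among members with at least 5 tags, the same cut as in the other group, the wt levels stayed below the others for Ddc (667 CPM), Slc18a2 (466 CPM) and Slc6a3 (125 CPM), with Th at 189.6 CPM. In the mutant library such members held Ddc at 795 CPM and Slc18a2 at 293 CPM, close to the other dopamine nuclei, Slc6a3 at 95.1 CPM, below them, and Th at 101 CPM. At 5000 UMIs Slc6a3 was seen in 43.7% of wt members (33.1 to 54.7%) and 77.9% of other wt dopamine nuclei, while Th was seen in 52.9% and 54.3%. At 2000 UMIs Slc6a3 was seen in 17.2% of wt members and in 3 of 21 wt oligodendrocyte-rich nuclei (14.3%), so its share in wt members was near that background at this depth; in mutant nuclei it was seen in 14.7% and 0 of 18. Ddc was seen in 65.5% of wt members and 14.3% of those nuclei, and Th in 27.6% and none. Snap25, a synaptic gene of all neurons, was seen in 93.1% of wt and 97.2% of mutant members.

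The label calls these nuclei tegmental, and a part of the tegmental markers was higher in them. A list member was counted when it was at least 1.5-fold higher or lower in members in both libraries and had at least 10 UMIs in members and other dopamine nuclei together in each; over all 17442 genes so measured, 2.39% were higher and 1.85% lower. Of 24 measured markers of tegmental-type dopamine neurons 6 were higher, 1 was lower and 17 were neither. Otx2 (chromosome 14, 48657677 to 48673819, minus strand) stood at 40.8 CPM in wt and 37.5 CPM in mutant members against 6.33 and 7.41 CPM, ratios of 6.46 (4.88 to 8.45) and 5.05 (4.05 to 6.26). Otx2 and Otx2os1 overlap over 5112 bases on opposite strands, and no source used here says whether counting used strand, so their reads cannot be told apart there. Slc17a6 stood at 75.9 and 99.8 CPM against 22.9 and 30.1 CPM. Nfib, a nuclear factor I gene, stood at 160 and 227 CPM against 37.5 and 48.0 CPM, and the calcium-binding protein gene Calb1 at 138 and 95.1 CPM against 78.9 and 52.3 CPM. Lypd1 was the exception, at 4.60 and 2.52 CPM against 26.4 and 14.2 CPM. Other members of the list, such as Tacr3 at 106 and 85.4 CPM against 99.6 and 46.4 CPM, did not reach 1.5-fold in both libraries.

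The nigral list showed the reverse. Of 15 nigral-type markers, all measured, 13 were lower in members of both libraries and none was higher. Slc6a3 is on this list and among those lower, and as a dopamine tag its place was in part fixed by the cut of the other dopamine nuclei. The median log2 ratios of the list were -1.58 in wt and -0.96 in mutant nuclei, against 0.02 and -0.02 over the 13799 genes with at least 50 UMIs in each library. Sox6 stood at 41.4 CPM in wt and 38.5 CPM in mutant members against 448 and 455 CPM, 10.8-fold (8.58 to 13.8) and 11.8-fold (9.77 to 14.4) lower. Ndnf stood at 4.60 and 0.360 CPM against 83.6 and 30.9 CPM, the second value being 1 UMI. Kcnj6, a potassium channel subunit gene, stood at 340 and 347 CPM against 1078 and 624 CPM, and Igf1 at 13.8 and 9.72 CPM against 99.7 and 48.9 CPM. Aldh1a1, a retinaldehyde dehydrogenase of ventral nigral neurons, differed between the libraries: it stood at 83.4 CPM in wt members against 192 CPM, and at 110 CPM in mutant members against 95.1 CPM.

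Beyond the 6 genes of the rule, 126 genes were at least 2-fold higher in members in both libraries (132 with them, 0.957% of 13799 genes), and 121 were at least 2-fold lower (0.877%). These folds carry a pseudocount of 5 CPM. The gene furthest above was Glra2, a glycine receptor subunit gene on chromosome X (165129017 to 165327393, minus strand), at 309 CPM in wt and 189 CPM in mutant members against 59.8 and 39.3 CPM. Tead1, a transcription factor gene of the Hippo pathway, stood at 215 and 283 CPM against 45.7 and 67.5 CPM. Pax5, a paired box factor gene of the midbrain and hindbrain boundary, stood at 56.4 and 58.0 CPM against 4.18 and 11.5 CPM. Kcnh5, a voltage-gated potassium channel gene (chromosome 12, 74897220 to 75177332, minus strand), stood at 305 and 276 CPM against 74.2 and 64.3 CPM. Kcnab1, a potassium channel beta subunit gene, stood at 786 and 834 CPM against 208 and 219.5 CPM, and Sorcs3, a sorting receptor gene, at 1272 and 1126 CPM against 336 and 306 CPM. The other 6 with the largest ratios were Zbbx, Dab2, Syndig1, Acacb and Nfib, described above, with 4930426D05Rik, which overlaps Klhl14 on the other strand and cannot be told apart from it without strand.

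**Figure D3:**
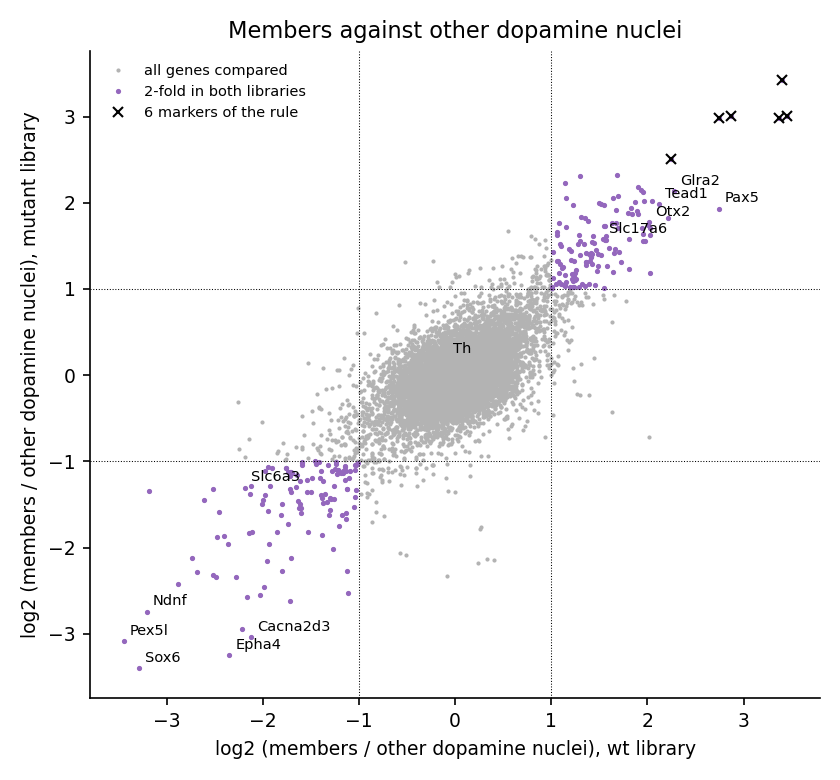
log2 ratio of members to other dopamine nuclei in the wt (horizontal) and mutant library (vertical) for 13799 genes, with a pseudocount of 5 CPM. Purple points passed 2-fold the same way in both libraries, 132 higher and 121 lower, and crosses mark the 6 genes of the rule; Th lies near 0 on both axes.

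The bases before a RefSeq transcript start of 4 of these genes are shown to let a reader see the sequences beside the levels: Pdgfd of the rule, Otx2 of the tegmental list, and Glra2 and Kcnh5 of the genes furthest above. They are RefSeq promoters on build GRCm38.p6, read 5′ to 3′ on the gene's strand and ending before the first base annotated as exon. The Otx2 stretch lies before the start of a shorter transcript, inside the gene's span given above. Capitals mark the dinucleotide CG, which reads alike on both strands.
Pdgfd, chr9:6168236-6168485, plus strand: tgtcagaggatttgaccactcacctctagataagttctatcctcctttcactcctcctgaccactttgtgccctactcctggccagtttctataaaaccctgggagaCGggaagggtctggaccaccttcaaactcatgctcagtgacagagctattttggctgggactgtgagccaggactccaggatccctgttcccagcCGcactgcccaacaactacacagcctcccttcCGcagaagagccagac
Otx2, chr14:48667645-48667894, minus strand: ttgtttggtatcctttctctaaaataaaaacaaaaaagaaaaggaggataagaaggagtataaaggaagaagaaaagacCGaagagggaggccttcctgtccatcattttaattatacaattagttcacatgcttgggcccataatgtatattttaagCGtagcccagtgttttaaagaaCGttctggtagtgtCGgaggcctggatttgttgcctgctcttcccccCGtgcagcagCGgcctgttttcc
Glra2, chrX:165327394-165327643, minus strand: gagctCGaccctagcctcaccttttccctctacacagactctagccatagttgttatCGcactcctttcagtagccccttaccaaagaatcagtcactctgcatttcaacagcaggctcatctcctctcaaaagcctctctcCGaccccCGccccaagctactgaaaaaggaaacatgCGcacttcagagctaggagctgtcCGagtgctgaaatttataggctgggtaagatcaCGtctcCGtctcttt
Kcnh5, chr12:75177333-75177582, minus strand: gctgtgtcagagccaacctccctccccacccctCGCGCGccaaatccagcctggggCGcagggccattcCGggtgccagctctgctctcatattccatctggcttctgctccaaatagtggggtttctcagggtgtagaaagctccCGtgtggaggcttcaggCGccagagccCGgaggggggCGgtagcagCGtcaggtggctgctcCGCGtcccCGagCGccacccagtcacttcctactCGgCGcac
The stretches held 3, 6, 8 and 16 CG in 250 bases, in that order. Among all 32851 promoters of the table the median over the same 250 bases was 6 and 92.1% held at least 1, so these 4 genes, all higher in members, spanned a wide range of CG content. A comparison of CpG content over all called genes was void, because a promoter was matched for only 68.9% of the genes 2-fold higher and 76.5% of all genes compared.

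Some receptor and channel genes differed in members, in both directions, while most did not reach 1.5-fold in both libraries. Over all genes so measured 2.39% were higher and 1.85% lower. Of 5 measured adrenergic receptor genes 2 were higher: Adra1a, part of the rule, and Adra1b, at 59.2 and 71.7 CPM against 28.7 and 40.7 CPM. Adrb1 was lower, at 1.15 and 1.08 CPM against 7.33 and 5.51 CPM. Its values in members were at or under the floor of 3 counts, 1.73 CPM in wt and 1.08 CPM in mutant members. Of 21 measured dopamine, serotonin and acetylcholine receptor genes 3 were higher, 1 was lower and 17 were neither. The serotonin receptor genes Htr7 and Htr4 stood at 63.8 and 59.1 CPM and at 59.2 and 55.1 CPM in members, against 23.8 and 22.5 CPM and 20.7 and 23.8 CPM. Drd2, the dopamine autoreceptor, was lower, at 144 and 116 CPM against 316 and 232 CPM. Of 34 measured peptide receptor genes 5 were higher, 3 were lower and 26 were neither. Oprk1, the kappa opioid receptor, stood at 306 and 166 CPM against 127 and 71.9 CPM, and Ntsr1, the neurotensin receptor, at 32.2 and 16.6 CPM against 74.6 and 41.6 CPM. Of 40 potassium channel genes 9 were higher, 4 were lower and 27 were neither. Kcnh7 stood at 705 and 690 CPM against 234 and 221 CPM, and Kcns3 at 21.3 and 18.0 CPM against 146 and 110 CPM. Of 9 growth factor and receptor genes of the platelet-derived and vascular endothelial families, Pdgfd of the rule was higher, while Pdgfc and Vegfc were lower. Pdgfc stood at 31.6 and 27.0 CPM against 92.0 and 67.9 CPM.

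The genes furthest below were Sox6, Pex5l, Ndnf, Bnc2, Epha4, Col25a1, Kcns3, Cyyr1, Rgs6, Grin2c, Ldb2 and Cacna2d3. Pex5l, a regulator of HCN channels, stood at 143 CPM in wt and 105 CPM in mutant members against 1606 and 932 CPM. Bnc2, a zinc finger gene, stood at 70.7 and 80.3 CPM against 555 and 454 CPM, and Epha4, an ephrin receptor gene, at 28.8 and 11.2 CPM against 167 and 149 CPM. Of 70 cell adhesion and axon guidance genes 13 were higher, 16 were lower and 41 were neither. Over all genes so measured 2.39% were higher and 1.85% lower. Nrp2 was among the higher, at 173 and 167 CPM against 45.03 and 39.9 CPM. Ntng1 was among the lower, at 125 and 117 CPM against 570 and 430 CPM. Of 17 regulators of dopamine neuron development 3 were higher (Otx2, Ebf1 and Nhlh2), 5 were lower and 9 were neither. Pbx3 stood at 351 and 269 CPM against 1278 and 962 CPM. Lmx1a, needed to specify dopamine neurons, stood at 111 and 127 CPM against 115 and 99.4 CPM, and En1 at 84.5 and 50.4 CPM against 74.3 and 28.3 CPM.

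Members differed among themselves in dopamine genes. The 16 wt and 43 mutant members under 5 dopamine tags held Ddc at 157 and 201 CPM, against 667 and 795 CPM in members with at least 5, a difference fixed by the split. Their Slc17a6 stood at 112 and 145 CPM against 69.3 and 84.5 CPM, and their Pax5 at 157 and 83.6 CPM against 38.0 and 49.2 CPM. Otx2 stood at 41.2 CPM (11 UMIs) and 42.5 CPM (30 UMIs) against 40.8 CPM (60 UMIs) and 35.7 CPM (74 UMIs), counts too low to call the levels equal. Calb1 was lower in members under 5 tags, at 71.2 and 43.9 CPM against 150 and 112 CPM. By score, the 44 wt and 88 mutant members with the higher values held Slc17a6 at 96.3 and 101 CPM and the rest at 55.9 and 98.5 CPM. Sox6 stood at 32.5 and 32.5 CPM in the higher-scoring and 50.2 and 44.1 CPM in the lower-scoring members, all far under the other dopamine nuclei.

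Members made up 5.49% of wt nuclei (4.42 to 6.72%) and 4.81% of mutant nuclei (4.14 to 5.55%). The rule took the top 5% of both libraries together, which ties the shares to 5% and to each other. They are shares of sorted nuclei, not of the tissue, and their intervals do not compare the genotypes. The genes that define members differed little between the libraries. Their summed level was 1297 CPM in wt and 1265 CPM in mutant members, a ratio of 0.975 (0.925 to 1.03), though the choice by one score for both libraries holds these levels alike. Plpp4 differed most of the 6, at 0.722 (0.646 to 0.807) of the wt level. Eed stood at 24.2 CPM in wt members (42 UMIs) and 33.1 CPM in mutant members (92 UMIs). No source used here says which part of Eed the mutant lacks, so tags near the 3′ end do not check the genotype.

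Dopamine genes were lower in mutant than in wt members, apart from Ddc, and the gap was smaller than in other dopamine nuclei. Th was 1.97-fold lower (1.65 to 2.35) in members and 2.41-fold lower (2.32 to 2.499) in other dopamine nuclei. Slc18a2 was 1.76-fold lower (1.58 to 1.96) against 2.56-fold (2.52 to 2.61), and Slc6a3 1.41-fold lower (1.15 to 1.73) against 2.60-fold (2.54 to 2.66). Ddc was at 1.10 (1.01 to 1.18) of its wt level in members and at 0.780 (0.770 to 0.790) in other dopamine nuclei. The 4 genes together stood at 0.817 (0.773 to 0.864) of the wt level in members and at 0.550 (0.545 to 0.555) in other dopamine nuclei. Among members with at least 5 tags, the wt and mutant levels were 189.6 and 101 CPM for Th and 466 and 293 CPM for Slc18a2. Slc6a3 stood there at 125 and 95.1 CPM and Ddc at 667 and 795 CPM. En1 was 1.68-fold lower (1.32 to 2.13) in members. Of 14 measured genes of dopamine synthesis, transport and breakdown 4 were at least 1.5-fold lower, none was higher and 10 were neither. Among the lower was Maoa, monoamine oxidase A, at 54.1 CPM in wt and 23.4 CPM in mutant members. Over all 12818 genes with at least 10 UMIs in members 4.42% were 1.5-fold higher and 4.22% lower. The 7 general neuronal genes summed to 5741 CPM in members of each library.

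Of 8470 genes with at least 50 UMIs in members, 48 stood 2-fold or more above wt in the mutant library (0.567%) and 35 stood 2-fold or more below it (0.413%), with a median log2 ratio of 0.00. Of the 48 genes 4 were listed developmental regulators (Hoxc4, Hoxc5, Onecut2 and Skor2), of 11 such regulators with 50 UMIs; Hoxc4, Hoxc5 and Skor2 had no UMI in wt members and reached that minimum through the mutant library alone, so the count supports nothing. When the other dopamine nuclei were thinned to the members' total UMIs, 92 of 8420 genes were higher (1.09%) and 57 lower (0.677%). Of the genes higher in members 21 were among those 92, 43.8% of the members' list and 22.8% of the other; of the genes lower, 9 were shared, 25.7% and 15.8%. In 32 of the 48 the full set of other dopamine nuclei was also at least 1.5-fold higher, and in 12 the nuclei with few dopamine tags were. The shares of all 8470 genes that passed 1.5-fold in those nuclei were not counted, so neither count is read as a result.

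**Figure D4:**
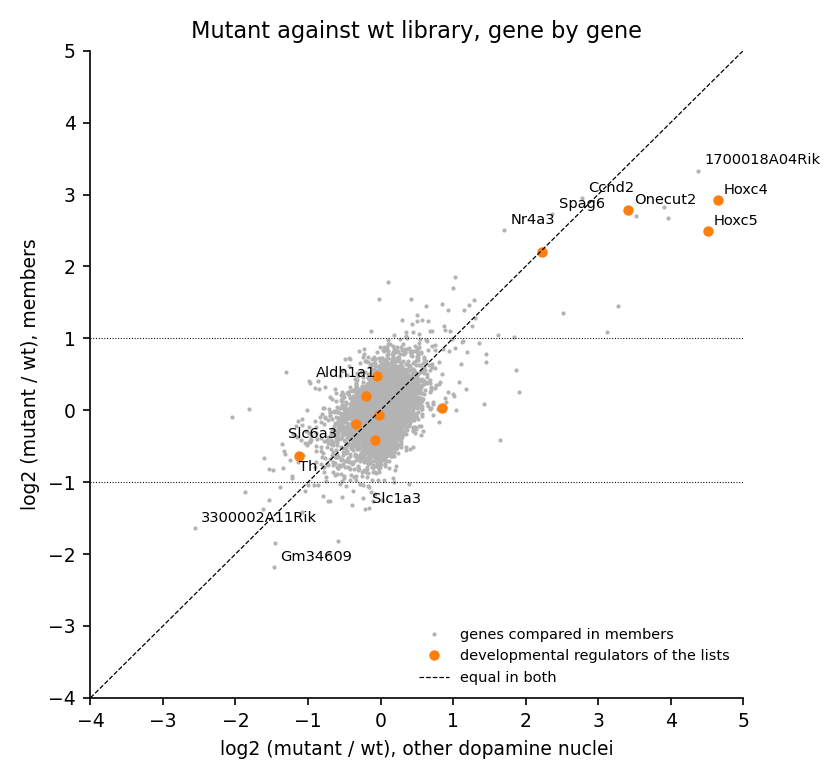
log2 ratio of mutant to wt library in other dopamine nuclei (horizontal) and in members (vertical) for 8470 genes, with a pseudocount of 5 CPM; orange points are developmental regulators of the lists and the dashed line marks equal ratios. Hoxc4 and Hoxc5 lie far under the dashed line, and Th and Slc6a3 lie to its upper left.

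Of the genes higher in mutant members, 7 had no UMI in any wt member. Hoxc4 (chromosome 15, 103018934 to 103036852, plus strand), a homeobox gene of the hindbrain and spinal cord, stood at 0 CPM in wt and 32.8 CPM in mutant members, with its 91 UMIs spread over 47 nuclei. It was at least 19.0-fold higher, taking 3 counts over the wt members as the floor. In other dopamine nuclei it stood at 0.0265 and 121 CPM. Hoxc5 stood at 0 and 23.1 CPM in members, and how reads of neighbouring Hox genes were split in counting is not known here. The noncoding RNA gene 1700018A04Rik stood at 0 and 45.4 CPM, at least 26.3-fold higher, and Spag6, a gene of the sperm flagellum, at 0 and 28.1 CPM, at least 16.3-fold higher. Ccnd2, a D-type cyclin gene, stood at 6.33 and 82.5 CPM, 13.0-fold higher (7.15 to 26.5), close to the 12.05-fold (10.5 to 13.9) of other dopamine nuclei. 9330179D12Rik, which overlaps Ccnd2 on the other strand, was also among the 48. Onecut2, a homeobox gene, stood at 16.1 and 140 CPM, 8.70-fold higher (5.92 to 13.3), and at 5000 UMIs was seen in 3 of 87 wt (3.45%) and 74 of 177 mutant members (41.8%). In oligodendrocyte-rich nuclei thinned to 2000 UMIs Onecut2 was seen in 2 of 21 wt (9.52%, 1.17 to 30.4%) and 2 of 18 mutant nuclei (11.1%, 1.38 to 34.7%). Among members thinned alike it was seen in 1.15% of wt and 27.1% of mutant nuclei, the latter within the interval of that background. The orphan nuclear receptor genes Nr4a3 and Nr4a1, which neuronal activity induces, stood at 2.88 and 39.6 CPM and at 4.60 and 29.5 CPM. Gm12688 and Skor2 complete the 12 genes with the largest ratios together with Gad1 and Slc6a5.

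Several genes of inhibitory transmitters stood higher in mutant members. Gad1, which makes GABA (chromosome 2, 70553072 to 70602014, plus strand), stood at 2.88 CPM (5 UMIs) in wt and 46.5 CPM (129 UMIs) in mutant members, 16.2-fold higher (6.75 to 50.6). Gad1os overlaps it on the other strand and cannot be told apart from it without strand. Gad2 stood at 21.3 and 67.3 CPM, with 56.8% of its wt UMIs in 1 nucleus. Slc6a5, the glycine transporter of glycinergic neurons (chromosome 7, 49910146 to 49963856, plus strand), stood at 0 and 27.0 CPM, at least 15.7-fold higher. The vesicular transporter gene Slc32a1, needed to release both, stood at 1.15 CPM (2 UMIs) and 4.32 CPM (12 UMIs). Gad1, Slc32a1 and Slc6a5 reached the minimum of 10 UMIs through the mutant library alone, so no count over the list is given. Slc6a9, a glycine transporter gene, stood at 12.7 and 12.6 CPM. At 5000 UMIs Gad1 was seen in 1.15% of wt members (0.0291 to 6.24%) and 14.7% of mutant members (9.83 to 20.8%), and in 34.1% of other mutant dopamine nuclei (32.3 to 35.9%). The list summed to 82.2 CPM in wt and 202 CPM in mutant members, 2.45-fold higher (2.04 to 2.97), against 3.49-fold (3.36 to 3.62) in other dopamine nuclei. The bases before a RefSeq transcript start of Gad1 and Slc6a5 are shown because both genes stood higher in mutant members, with CG in capitals. The Gad1 stretch lies inside the span given above, which begins at a transcript start further upstream.
Gad1, chr2:70561879-70562041, plus strand: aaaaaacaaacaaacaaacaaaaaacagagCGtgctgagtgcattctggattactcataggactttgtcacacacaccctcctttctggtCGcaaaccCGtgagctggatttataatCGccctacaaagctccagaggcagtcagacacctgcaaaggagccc
Slc6a5, chr7:49910049-49910145, plus strand: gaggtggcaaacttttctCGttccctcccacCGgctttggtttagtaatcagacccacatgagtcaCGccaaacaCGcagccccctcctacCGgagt
They held 4 CG in 163 and 5 in 97 bases, where the medians of all promoters over the same lengths were 3 and 2. At least as many CG were held by 46.7% and 24.4% of promoters. For the genes 2-fold higher in mutant members a promoter was matched for 66.7%, against 79.1% of all genes compared. A comparison of their CpG content as a set was therefore void, and these 2 stretches do not stand for the set.

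Hox genes and other developmental regulators were present in mutant members at lower levels than in other mutant dopamine nuclei. The 31 Hox genes of the table summed to 0 UMIs in wt members and 379 in mutant members, or 136 CPM (123 to 151), against 540 CPM (534 to 546) in other mutant dopamine nuclei and 0.0794 CPM in other wt dopamine nuclei. Of the 31 only 10 reached 10 UMIs in members, all with 0 UMIs in wt members, so they passed that minimum through the mutant library alone. A wider set took the 189 homeobox and other developmental regulators, Hox genes included, that stood under 1 CPM in other wt dopamine nuclei. Together they summed to 29.3 CPM (21.8 to 38.6) in wt members and 523 CPM (497 to 551) in mutant members. In other dopamine nuclei the sums were 28.0 CPM (26.3 to 29.7) and 1568 CPM (1559 to 1578), and in nuclei with few dopamine tags 114 and 432 CPM. The choice of the 189 genes held the wt value of other dopamine nuclei low, so that value is not read as a result. Pax3, a paired box gene, stood at 0 and 14.0 CPM in members and at 0.132 and 102 CPM in other dopamine nuclei, and Hoxb3 at 0 and 14.4 CPM against 0 and 51.3 CPM. Skor2 did not follow, with 18.0 CPM in mutant members and 18.4 CPM in other mutant dopamine nuclei.

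Single nuclei showed the same difference. Thinned to 5000 UMIs, mutant members held a median of 1 UMI of the 189 regulators (quartiles 0 and 3), and other mutant dopamine nuclei a median of 7 (quartiles 3 and 11). At least 3 such UMIs were held by 56 of 177 mutant members, 31.6% (24.9 to 39.0%), by 78.9% (77.3 to 80.4%) of other mutant dopamine nuclei and by 29.6% (26.6 to 32.8%) of mutant nuclei with few dopamine tags. In wt nuclei they were held by 0 of 87 members, which allows up to 3.45%, and by 0.589% of other dopamine nuclei, where the choice of the genes held them low. None of the 189 was seen in 56 mutant members, also 31.6%, and in 7.85% of other mutant dopamine nuclei. The highest mutant member held 17. Thinned to 2000 UMIs, at least 1 was held by 49.2% of mutant members (41.6 to 56.8%) and by 3 of 18 mutant oligodendrocyte-rich nuclei, 16.7% (3.58 to 41.4%), so a single UMI of the set is not read as expression. At least 2 were held by 26.6% of mutant members (20.2 to 33.7%) and by 0 of those 18, which allows up to 16.7%.

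**Figure D5:**
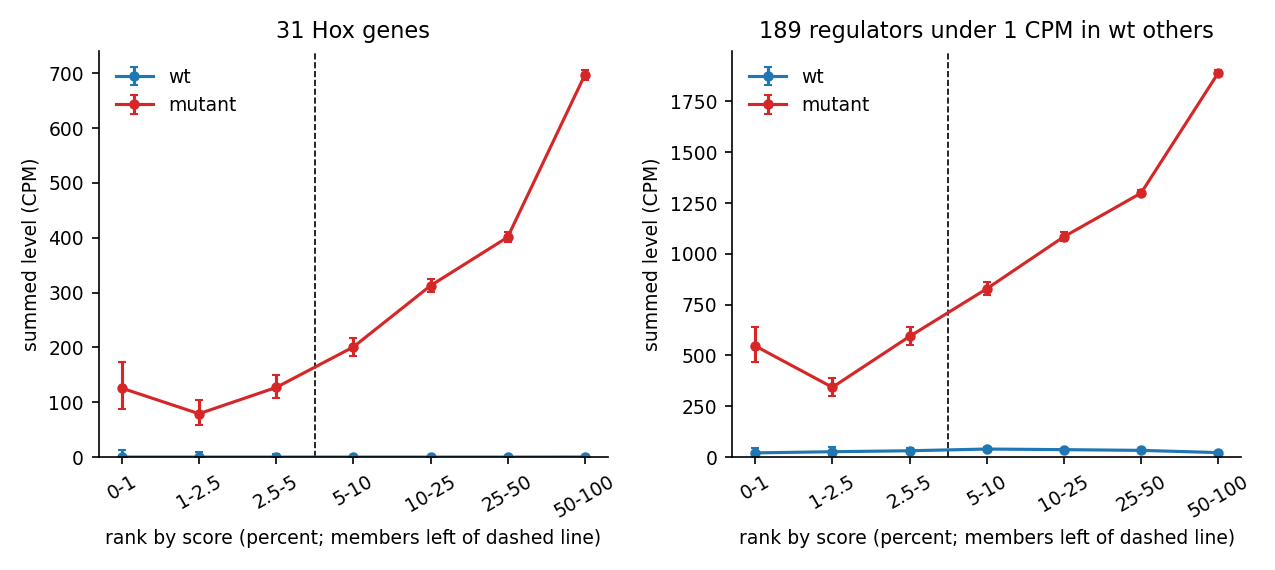
Summed level in CPM of the 31 Hox genes (left) and of 189 regulators under 1 CPM in other wt dopamine nuclei (right), for nuclei with at least 5 dopamine tags per 10000 in bands of rank by score; bars are exact 95% counting intervals, and the 3 bands left of the dashed line are members. In the mutant library the levels were 79.0 to 127 CPM and 343 to 594 CPM in the members' bands and 697 and 1890 CPM in the lowest band, while wt nuclei stood at 39.5 CPM or less.

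The level of the regulators differed between bands of the score on both sides of the line that defines members. Among mutant nuclei with at least 5 dopamine tags, the 189 genes stood at 343 to 594 CPM in the 3 bands of members. They stood at 828 CPM between ranks 5 and 10%, at 1084 CPM between 10 and 25%, at 1299 CPM between 25 and 50% and at 1890 CPM in the rest. The median of the dopamine tags was 10.9 to 13.4 per 10000 in the members' bands, 13.3 in the 5 to 10% band and 13.7 in the lowest band. Slc6a3 stood at 40.8 to 106 CPM in the members' bands and at 213 CPM in the lowest. The difference was also present among nuclei of like dopamine tags. Between 5 and 10 tags per 10000 the regulators stood at 514 CPM (466 to 566) in 48 mutant members and 1429 CPM (1412 to 1446) in 698 other mutant nuclei, and at 20 or more tags at 549 CPM (461 to 649) in 20 and 1264 CPM (1239 to 1289) in 469. Mutant members with a UMI of Slc6a3 held 588 CPM (547 to 631) and those without one 464 CPM (430 to 501), both under the 1621 and 1131 CPM of other dopamine nuclei so divided. For the Hox genes alone, mutant members under 5 dopamine tags stood at 210 CPM (177 to 246) and those with at least 5 at 112 CPM (97.6 to 127). The share of nuclei in which Cre acted was not measured here.

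Among genes lower in mutant members, 14 of the 35 carry Gm or Rik names, as do 9 of the 48 higher genes and 5.05% of all genes compared. Gm34609, a noncoding RNA gene on chromosome 10, was at 43.7 CPM (76 UMIs) in wt and 5.76 CPM (16 UMIs) in mutant members, 7.59-fold lower (4.38 to 13.9), and at 10.5 and 0.633 CPM in other dopamine nuclei. 3300002A11Rik, annotated antisense to Foxn3, was at 122 and 35.7 CPM, 3.42-fold lower (2.68 to 4.39), and 7.26-fold lower (6.82 to 7.74) in other dopamine nuclei. Several others rested on few nuclei. In 9 of the 35 genes 1 nucleus held at least 25% of the wt UMIs: Hmcn1 (95.6%), Gm14661 (62.5%), St18 (51.2%), Prr5l (50%), Gm16168 (49.0%), Slc1a3 (40.0%), Epha4 (38.0%), Lmo3 (29.0%) and 4930467D21Rik (27.7%), named after their values were seen. Of the 48 higher genes 3 had at least 25% of their mutant UMIs in 1 nucleus: Gm29683 (28.6%), Fam163a (28.3%) and Ebf2 (28.1%), also named after their values were seen. With the highest nucleus of each gene and library left out, a step added after seeing the data, 26 of the 35 were still 2-fold lower and all 48 still 2-fold higher. Under the whole rule, with the minimum of 50 UMIs applied again to the reduced counts, 25 of the 35 and 36 of the 48 were called. The remaining genes of the 12 furthest below were Gm3411, Gm5796, Slc39a12, Gm13481, Spag5 and Gdpd2. Spag5, a gene of the mitotic spindle, stood at 118 and 46.5 CPM in members and at 151 and 91.7 CPM in other dopamine nuclei. Slc39a12, a zinc transporter gene, stood at 33.9 and 10.1 CPM in members and at 29.5 and 6.24 CPM in other dopamine nuclei. Gm3411 and Gm5796 may share reads with near-identical copies, so their counts are uncertain.

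Slc1a3, an astrocyte glutamate transporter gene, was among the lower genes, at 23.0 CPM (40 UMIs in 7 nuclei) in wt and 5.76 CPM (16 UMIs in 7 nuclei) in mutant members. Of 8 measured astrocyte markers 3 were at least 1.5-fold lower in mutant members and none was higher. The shares over all 12818 genes so measured were 4.22% lower and 4.42% higher, for this and the next lists. Slc1a3 and the oligodendrocyte marker St18 rested in part on a single wt nucleus, as given above. The 10 genes of the astrocyte list summed to 490 CPM in wt and 382 CPM in mutant members. Slc1a2, which neurons also express, gave 390 and 324 CPM of these sums, and Gfap, a defining marker, stood at 0.575 and 0.720 CPM. In nuclei with few dopamine tags the same list summed to 474 and 252 CPM, and in other dopamine nuclei to 279 and 332 CPM. Oligodendrocyte markers summed to 129 and 91.1 CPM in members, with 2 of 7 measured lower, and to 256 and 218 CPM in other dopamine nuclei. Of the 9 microglial markers 8 were measured and 2 were higher in mutant members, with sums of 80.5 and 87.9 CPM. Vascular markers summed to 219 and 315 CPM, of which Ebf1, also a neuronal factor, gave 214 and 304 CPM, while Cldn5, a defining marker, had no UMI in members. The part of these cells in the lower genes was not tested.

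Polycomb genes and the remaining lists varied in how far mutant and wt members differed. Over all 12818 genes measured in members 4.42% were 1.5-fold higher and 4.22% lower. Of 10 measured PRC2 subunit and cofactor genes none passed 1.5-fold. Among 19 measured genes of PRC1 and the histone demethylases 5 were at least 1.5-fold higher, Pcgf5 at 57.5 and 89.3 CPM among them, and none was lower. As a whole that list summed to 1026 CPM in wt and 1068 CPM in mutant members, a ratio of 1.04 (0.981 to 1.10). Cdkn2a, a cell cycle inhibitor, stood at 0 and 7.92 CPM, from 22 UMIs in 14 mutant members, against 0.0265 and 18.7 CPM in other dopamine nuclei. Of 11 measured nigral-type markers 1, Lmo3, was lower, and of 21 tegmental-type markers 3 were higher and 2 were lower. Otx2 stood at 0.917 (0.672 to 1.26) and Sox6 at 41.4 and 38.5 CPM. Of 24 measured peptide receptor genes 4 were lower and 1 was higher, and the list summed to 768 CPM in wt and 571 CPM in mutant members, a ratio of 0.744 (0.691 to 0.801) against 0.629 (0.618 to 0.640) in other dopamine nuclei. Oprk1 was 1.84-fold lower (1.62 to 2.09) and Glra2 1.63-fold lower (1.44 to 1.84) in mutant members, and 1.77-fold (1.70 to 1.84) and 1.52-fold (1.44 to 1.61) lower in other dopamine nuclei. Chga, a protein of secretory granules, stood at 24.7 and 54.0 CPM, 2.18-fold higher (1.55 to 3.14), as in other dopamine nuclei at 2.19-fold (2.03 to 2.36). Markers of serotonin, acetylcholine and noradrenaline neurons were near 0, with the 7 listed genes of the table together at 1.15 CPM in wt and 5.40 CPM in mutant members.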

How the data were processed

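Per the labels' protocols, nuclei were isolated from midbrain, sorted by FACS and made into 10x Single Cell 3′ v3 libraries; no source used here says which signal the sort used. Cell Ranger 3.1.0 and build mm10 are named in the submitters' processing notes. The authors deposited raw UMI counts per gene and nucleus, 23481 genes by 5740 nuclei, with lanes merged and genotype given by column name; no source used here says which nuclei were removed before deposit or whether introns or strand were used in counting. Here 476 nuclei under 5000 UMIs were left out and no doublet caller was run.

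Levels are sums of counts over a group's nuclei in one library, as CPM. Genes were called at 2-fold with a pseudocount of 5 CPM and at least 50 UMIs, list members at 1.5-fold and at least 10 UMIs; folds of single genes and sums carry no pseudocount and have exact intervals, by the binomial distribution of one count given the sum of both. A fold against 0 used a floor of 3 counts. Shares used nuclei thinned without replacement, with exact (Clopper-Pearson) intervals. The calculation was tested on simulated data. The 2 groups are 1 library each and replicate numbers are lanes. Python 3.11.15, numpy 2.4.6, scipy 1.17.1, pandas 2.3.3 and matplotlib 3.10.9 were used. Positions come from GENCODE M21 by symbol (23058 symbols matched 1 gene).

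Members, gene lists and alternatives were chosen with earlier results of these data known. Named genes are the 6 of the rule, Th, Slc6a3, Slc18a2, Ddc, Otx2, En1, Pitx3 and Eed, the 12 furthest each way in both comparisons, and per list those with the largest ratios or levels. Lists covered dopamine handling, dopamine neuron regulators and subtypes, transmitters, receptors, peptides, channels, adhesion, developmental regulators, Polycomb genes and glial, vascular and neuronal markers. Other settings tried were the pseudocount, UMI minimums, scaling, cut of the score, markers of the score, depth, glial content, dopamine tags and equal weighting of nuclei.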

Additional observations from a re-analysis of the deposited data

How the results depend on the processing

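The number of genes called depended on the pseudocount and on the UMI minimum. With a pseudocount of 1 CPM, 235 genes were higher and 251 lower in members, in place of 132 and 121, and 87 were higher and 65 lower in mutant members, in place of 48 and 35. With no minimum beyond 1 UMI, 132 were higher and 71 lower in mutant members; with at least 20 UMIs, 114 and 62; with at least 100 UMIs, which leaves fewer genes to test, 18 and 13. Taking the top 10% by score, 71 genes were lower in members and 95 higher in mutant members, and the cause was not tested. The genes called also varied with the choice of nuclei: of the 48 higher and 35 lower genes in mutant members, 15 and 16 were called again with the top 3% by score, 30 and 13 with the top 10%, and 26 and 26 with tagged members only. Counting only members with dopamine tags, which leaves fewer nuclei, gave a mutant share of 3.64%. Under the other settings 109 to 165 genes were higher and 108 to 158 lower in members, 41 to 67 were higher and 26 to 43 lower in mutant members, and the shares were 4.48 to 5.74% in wt and 4.70 to 5.03% in mutant nuclei. Of the 22 settings 21 were planned, and leaving out each gene's highest nucleus was chosen after seeing the data. No paired analysis was possible because the replicate numbers are lanes of 1 library per genotype, which the deposited table does not keep apart; for the same reason no replicate could be left out. With 2776605 UMIs in mutant and 1738628 in wt members, genes under the minimum of 50 UMIs could not be compared one by one.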
